A study of Homo sapiens with 9 samples.

Results

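The inducible HSP70 genes HSPA1A and HSPA1B and 6 further heat shock genes were followed in MDA-MB-231 cells, a mesenchymal-like triple-negative breast cancer line, exposed to the BET bromodomain inhibitor JQ1. The 8 members (HSPA1A, HSPA1B, HSPA1L, HSPA6, HSPB1, HSPD1, HSPH1 and BAG3) were all found among the 14884 named genes of the array, on 20 of its 53617 rows. They were chosen by symbol, with HSPA1A and HSPA1B already known to be among the strongest rises at 12 h in these same arrays. Values of the 12 h comparison are therefore a description of the members and carry no test, and HSPA1A, HSPA1B and their neighbour HSPA1L carry none in any comparison.

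The groups were 3 arrays of cells given 500 nM JQ1 for 12 h, 3 arrays of cells given 500 nM JQ1 for 24 h, and 3 control arrays with no agent at time 0. All came from the same unmodified line, a single established culture line, and total RNA of each sample was hybridised to an Affymetrix Human Gene 2.0 ST array. No vehicle is named for the controls and they match neither treatment time, so JQ1, solvent and time in culture cannot be told apart. The labels do not say whether the 3 arrays of a group came from different cultures. The p-values thus cover the variation among these arrays, part or all of which may be technical.

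Heat shock proteins are chaperones that hold, refold or hand over unfolded proteins. The HSP70 chaperones work in a cycle of ATP hydrolysis and nucleotide exchange, helped by J-domain proteins and by exchange factors such as the HSP110 protein HSPH1 and the BAG proteins. Their inducible genes are driven by heat shock factor 1 (HSF1), which as a trimer binds repeats of the letters GAA in alternating orientation, the heat shock element. Many cancer cells keep high levels of these chaperones without any heat.

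Control 3 stood apart from controls 1 and 2, and it did so on some of these genes. Controls 1 and 2 differed from each other with an SD of 0.213 log2 over all rows, whereas control 3 differed from them with SDs of 0.385 and 0.389. Control 3 lay nearer to JQ1 12 h arrays 2 and 3 (0.314 and 0.343) and JQ1 24 h array 2 (0.355). From the other treated arrays it differed by 0.388 to 0.404. Controls 1 and 2 differed from the treated arrays by 0.376 to 0.413. Which controls are atypical was not tested, so fits without control 3 are not a cleaner reading. Differences of the members and of the named list genes are therefore also given without control 3. The markers gave a mixed picture of the labelled line. Over the 9 arrays, where array medians lay between 4.92 and 4.96 log2, the mesenchymal genes VIM, AXL, CD44 and ZEB1 averaged 10.54, 11.73, 7.48 and 7.06. The epithelial genes KRT18, KRT19, KRT8 and EPCAM averaged 10.22, 7.85, 6.94 and 6.26, and the estrogen and progesterone receptor genes ESR1 and PGR 5.04 and 4.09. Of genes marking other cell types, the macrophage gene CD68 averaged 11.66, the endothelial genes PECAM1 and VWF 4.26 and 4.97, and the fibroblast gene DCN 2.99.

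HSPA1A and HSPA1B encode the major stress-inducible cytosolic HSP70 and are near-identical copies 12195 bases apart on chromosome 6 (between transcript starts, RefSeq, GRCh38.p14). Because the copies are so alike, array probes may not separate them, and the 2 genes are not independent readings. The sequences just before their starts show how close the copies are there and where a heat shock element lies. The 250 bases before the start of HSPA1A (chr6:31815293-31815542, plus strand) and of HSPA1B (chr6:31827488-31827737, plus strand) are printed 5′ to 3′ from RefSeq, with capitals marking GAANNTTC or TTCNNGAA, the 2-unit heat shock element.
HSPA1A: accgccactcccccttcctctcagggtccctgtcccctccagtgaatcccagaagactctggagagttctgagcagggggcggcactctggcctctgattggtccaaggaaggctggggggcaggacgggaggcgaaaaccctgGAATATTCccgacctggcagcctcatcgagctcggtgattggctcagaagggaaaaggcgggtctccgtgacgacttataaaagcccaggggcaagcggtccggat
HSPA1B: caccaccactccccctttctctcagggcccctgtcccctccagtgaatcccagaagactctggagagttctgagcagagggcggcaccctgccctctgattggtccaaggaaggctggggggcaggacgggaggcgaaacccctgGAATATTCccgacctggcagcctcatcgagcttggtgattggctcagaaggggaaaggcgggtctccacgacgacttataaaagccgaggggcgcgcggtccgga
Aligned end to end, the 2 windows were 93.6% identical (235 identical bases over 251 aligned positions). Each held 1 copy of GAATATTC, whose last letter lies 99 bases before the start of HSPA1A and 98 before that of HSPA1B, and 1 TATAAA.

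On the HSPA1A row used (17026318), the log2 array signal was 11.32, 11.32 and 11.32 in the JQ1 12 h arrays and 11.19, 11.14 and 11.14 in the JQ1 24 h arrays, against 9.52, 9.46 and 10.68 in controls 1, 2 and 3. At each time all 3 treated arrays lay above all 3 controls, as for 11.3% of all genes at 12 h and 13.3% at 24 h. Control 3 lay between the treated arrays and controls 1 and 2. The difference from control was 1.44 log2 at 12 h (SE 0.27, 2.71-fold) and 1.27 at 24 h (SE 0.27, 2.41-fold). Without control 3 it was 1.83 at 12 h (SE 0.07, 3.56-fold) and 1.67 at 24 h (SE 0.07, 3.18-fold). Against control 3 alone the treated means were 0.64 higher at 12 h and 0.48 higher at 24 h. These are bulk RNA values, so a rise in part of the cells and a smaller rise in every cell cannot be told apart, nor can fewer cells of a kind from less RNA per cell.

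On the HSPA1B row used (17030833), the signal was 11.61, 11.69 and 11.66 log2 at 12 h and 11.49, 11.46 and 11.46 at 24 h, against 9.64, 9.69 and 11.04 in controls 1, 2 and 3. As for HSPA1A, the treated groups lay above every control, and control 3 was the control nearest to them. The difference was 1.53 log2 at 12 h (SE 0.31, 2.90-fold) and 1.35 at 24 h (SE 0.31, 2.55-fold). Without control 3 it was 1.99 (SE 0.07, 3.98-fold) and 1.81 (SE 0.07, 3.50-fold). The spread sat in the controls: the SD over 3 arrays was 0.04 at 12 h and 0.02 at 24 h, against 0.80 in the controls. For HSPA1A the SDs were 0.0021 and 0.032, against 0.69.

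**Figure D1:**
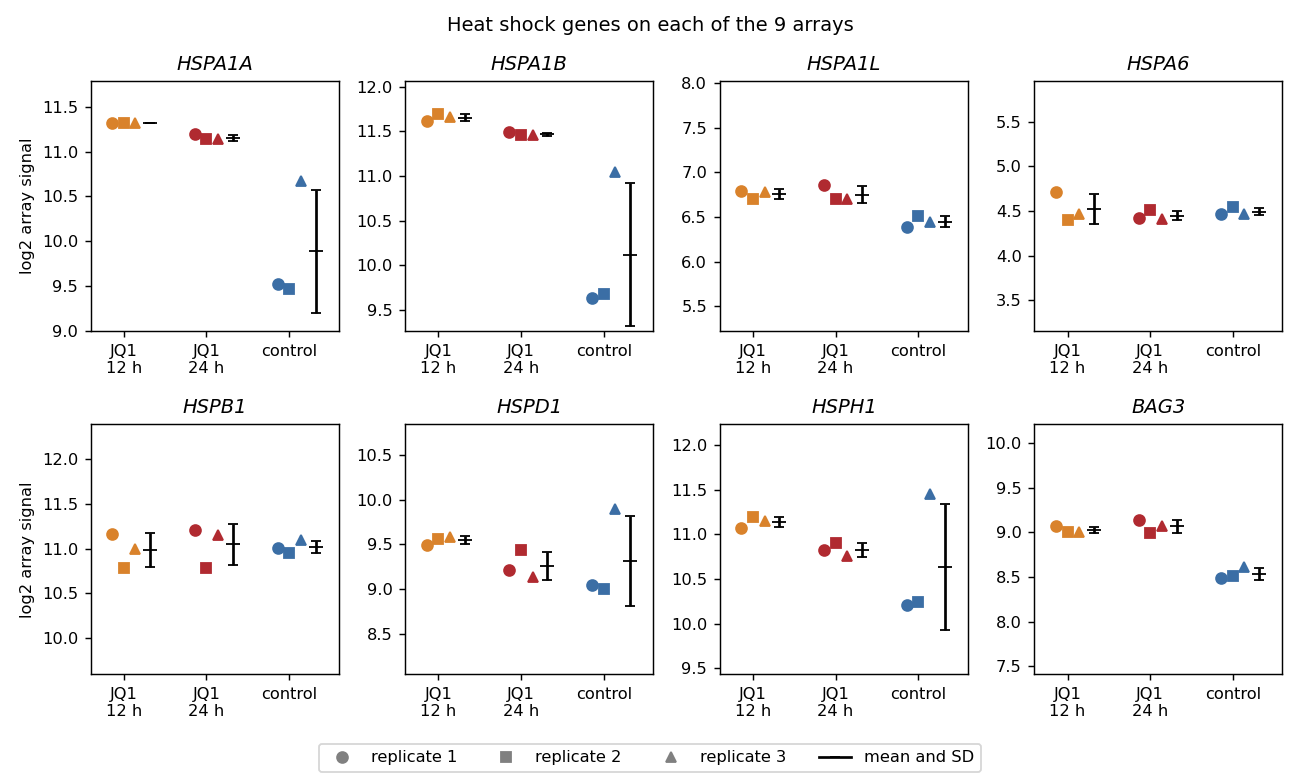
Log2 array signal of the 8 heat shock genes on each array, 1 panel per gene, with JQ1 12 h, JQ1 24 h and control arrays from left to right; marker shape gives the replicate and the black bar the mean and SD over 3 arrays. Every panel spans the same log2 range. Control 3 (triangle) lies apart from controls 1 and 2 for HSPA1A, HSPA1B, HSPD1 and HSPH1, and near them for BAG3, where both treated groups lie above all controls.

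Both copies were read by 5 rows each, and all 10 rows gave similar differences. The rows read the same near-identical copies, which probes may not separate, so this likeness is no separate support. Of the 5 HSPA1A rows, 3 held identical values on all arrays and so count as a single reading, which leaves 3 distinct profiles; the 5 HSPA1B rows held 5. Over the rows, the 12 h difference ran from 1.44 to 1.504 log2 for HSPA1A and from 1.53 to 1.67 for HSPA1B. At 24 h it ran from 1.27 to 1.35 and from 1.35 to 1.45. Without control 3 the 12 h ranges were 1.83 to 1.91 for HSPA1A and 1.99 to 2.16 for HSPA1B. Control 3 exceeded the mean of controls 1 and 2 by 1.19 to 1.22 on the HSPA1A rows and by 1.32 to 1.47 on the HSPA1B rows.

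HSPA1L encodes an HSP70 known mainly from testis. Its start lies 260 bases from that of HSPA1A on the opposite strand, so that the 250-base windows before the 2 starts overlap by 241 bases and share the single GAATATTC shown above. The HSPA1L row used (17017485) read 6.79, 6.70 and 6.78 log2 at 12 h and 6.86, 6.70 and 6.70 at 24 h, against 6.39, 6.51 and 6.44 in the controls. At each time its 3 treated arrays lay above all controls, as for 11.3% of all genes at 12 h and 13.3% at 24 h. Control 3 lay between the other controls. The difference was 0.31 at 12 h (SE 0.08) and 0.30 at 24 h (SE 0.08), or 1.24-fold and 1.24-fold, and 0.31 and 0.30 without control 3. The 4 other rows, of which 3 held identical values, gave smaller differences, with 0.17 as the lowest at 12 h and 0.18 as the lowest at 24 h.

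**Figure D2:**
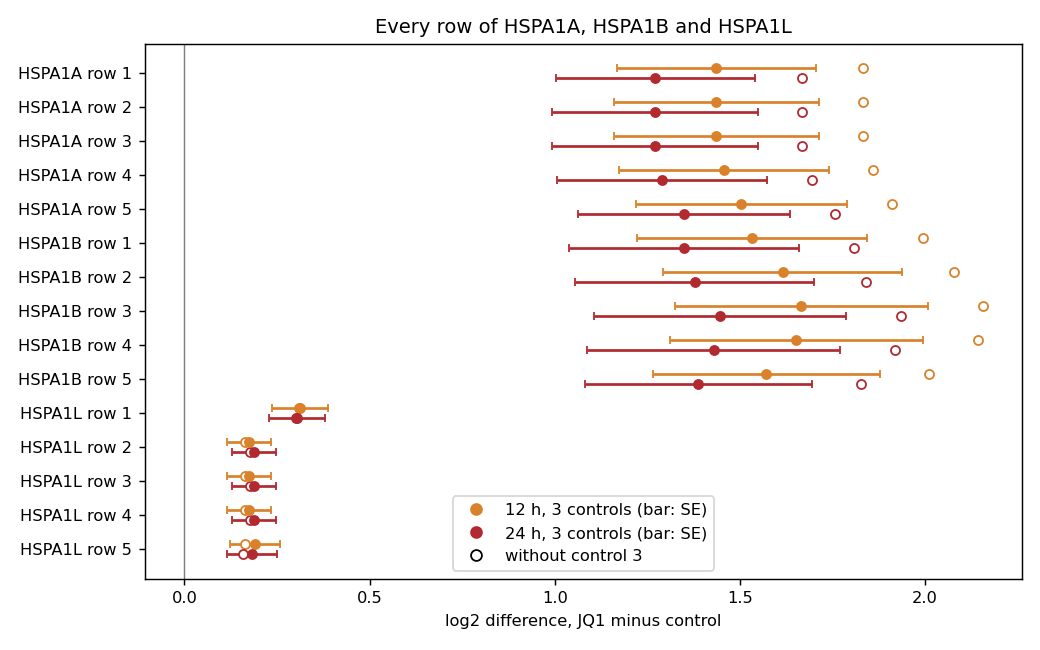
Log2 difference between JQ1 and control for each of the 5 rows of HSPA1A, HSPA1B and HSPA1L, at 12 h (orange) and 24 h (red); filled points use all 3 controls, with bars of 1 SE, and open points leave out control 3. The rows of HSPA1A and HSPA1B lie between 1.27 and 1.67 with all controls and move higher without control 3, while the rows of HSPA1L lie between 0.17 and 0.31.

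BAG3 encodes a co-chaperone that binds the HSP70 ATPase domain as an exchange factor and couples HSP70 to small heat shock proteins and to selective autophagy. It rose at 24 h: its row (16709856) read 9.14, 8.99 and 9.07 log2 at 24 h, against 8.48, 8.51 and 8.61 in the controls. The difference was 0.53 log2 (SE 0.07, 1.44-fold, limma adjusted p = 0.0024), with all 3 treated arrays above all 3 controls, as for 13.3% of all genes. In contrast to HSPA1A and HSPA1B, control 3 lay close to the other controls, 0.12 above their mean. Without control 3 the difference was 0.57 (adjusted p = 0.00075), and over the 9 fits that each left out 1 array the highest adjusted p was 0.015. At 12 h, described without a test, BAG3 read 9.07, 9.005 and 9.01, against the same controls, a difference of 0.49 (SE 0.07, 1.41-fold). The 24 h comparison uses the control arrays that the choice of members also used.

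HSPH1, the HSP110 protein that serves as an exchange factor for HSP70, passed or missed the test at 24 h depending on 1 array. Its row (16777896) read 11.08, 11.19 and 11.15 log2 at 12 h and 10.82, 10.91 and 10.75 at 24 h, against 10.21, 10.24 and 11.45 in controls 1, 2 and 3. Every treated array lay above controls 1 and 2 and below control 3. With all controls HSPH1 was not called at 24 h (log2 0.19, SE 0.28, limma adjusted p = 0.76). Without control 3 it was called up (log2 0.60, SE 0.08, 1.51-fold, adjusted p = 0.00072). At 12 h the difference was 0.50 with all controls and 0.91 without control 3.

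HSPD1 encodes the mitochondrial chaperonin HSP60. Its row (16906962) read 9.50, 9.57 and 9.58 log2 at 12 h and 9.21, 9.44 and 9.14 at 24 h, against 9.05, 8.998 and 9.89 in controls 1, 2 and 3. Here too every treated array lay between control 3 and the other two controls. HSPD1 was not called at 24 h, either with all controls (log2 -0.05, SE 0.21, limma adjusted p = 0.92) or without control 3, where the sign turned (log2 0.24, SE 0.10, adjusted p = 0.14). At 12 h the difference was 0.23 with all controls and 0.52 without control 3.

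**Figure D3:**
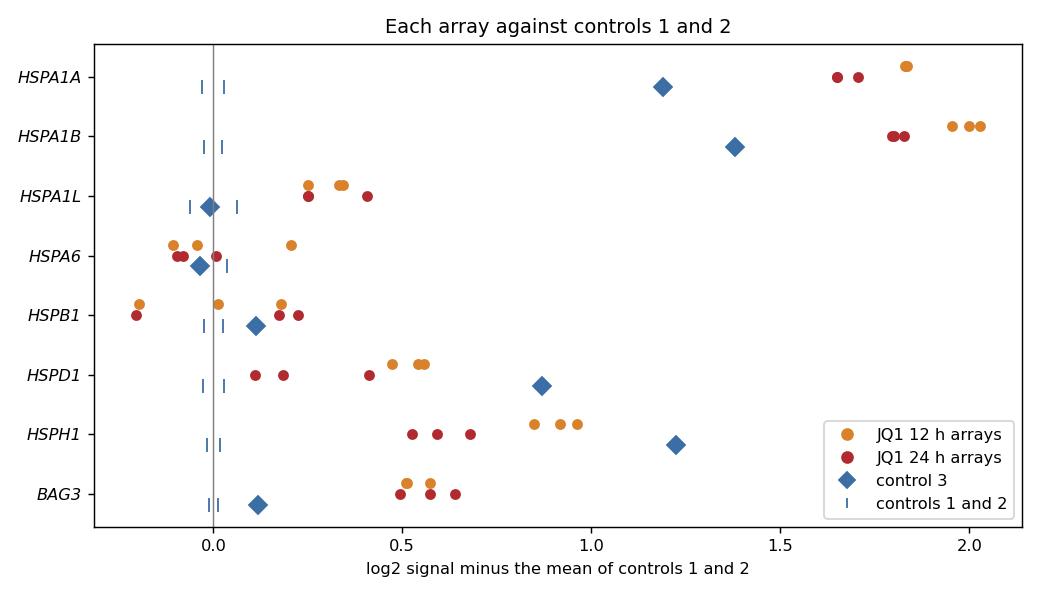
Log2 signal of each array minus the mean of controls 1 and 2, for the 8 heat shock genes; orange and red points are the JQ1 12 h and 24 h arrays, the blue diamond is control 3 and the blue ticks are controls 1 and 2. Control 3 lies 1.19 to 1.38 higher for HSPA1A and HSPA1B, short of the treated arrays, 0.87 and 1.22 higher for HSPD1 and HSPH1, beyond the treated arrays, and within 0.12 of the zero line for the other 4 genes.

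Control 3 was thus higher than controls 1 and 2 on 4 members by at least 0.87 log2. Over all genes tested the median of that difference was -0.01, and 201 of 14884 genes (1.35%) lay at least 1 log2 higher in control 3; HSPA1A, HSPA1B and HSPH1 were 3 of them. The part of control 3 in the differences above was not tested beyond leaving it out.

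HSPB1, which encodes the small heat shock protein HSP27, and HSPA6, a strictly stress-inducible HSP70 gene, did not pass the test. HSPB1 (row 17047504) read 11.21, 10.78 and 11.16 log2 at 24 h, against 11.01, 10.96 and 11.10 in the controls (log2 0.03, SE 0.13, limma adjusted p = 0.94). At 12 h it read 11.16, 10.79 and 11.00, so that both treated groups overlapped the controls and spread more widely than they did (SD 0.19 at 12 h and 0.23 at 24 h, against 0.07). HSPA6 (row 16672914) read 4.43, 4.51 and 4.41 at 24 h, against 4.47, 4.54 and 4.47 in the controls (log2 -0.04, SE 0.09, adjusted p = 0.84), and 4.71, 4.40 and 4.46 at 12 h. Without control 3 the 24 h difference was 0.065 for HSPB1 (adjusted p = 0.85) and -0.056 for HSPA6 (adjusted p = 0.80). All 9 HSPA6 readings lay below the median of all rows on every array. No detection calls were used here, so a signal this dim may be background, and a change in HSPA6 RNA may not have been detectable.

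Between the treated times no member was called. HSPH1 was 0.31 log2 lower at 24 h than at 12 h (SE 0.28, limma adjusted p = 0.91) and HSPD1 0.29 lower (SE 0.21, adjusted p = 0.88). These SEs pool the spread of all 3 groups, including the controls, where control 3 stood apart. Without control 3 the differences were the same. The limma adjusted p was then 0.14 for HSPH1 (SE 0.07) and 0.24 for HSPD1 (SE 0.09). For both genes all 3 arrays at 24 h lay below all 3 at 12 h, as also for HSPA1A (log2 -0.17) and HSPA1B (log2 -0.19), where 7.11% of all genes tested lay so. BAG3 differed by 0.04 (SE 0.07, adjusted p = 0.96), HSPB1 by 0.07 (adjusted p = 0.97), HSPA6 by -0.07 (adjusted p = 0.94) and HSPA1L by -0.01. In this comparison only 1 of all 14884 genes was called, or 0.00672%.

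Counted together, 4 of the 8 members (HSPA1A, HSPA1B, HSPA1L and BAG3) were called up at 12 h and 0 down, where 3.54% of all genes tested were called up. The same 4 were called up at 24 h and 0 down, where 5.17% of all genes were called up; both comparisons share the controls. Nothing is read from either count, since the members were picked with these arrays known and 3 of the 4 calls belong to genes described without a test. Each of those 3 calls also ended when any 1 of several arrays was left out, while all 3 held without control 3. At 12 h the fits that ended them called 543 to 875 of all genes, against 1181 with all arrays. The HSPA1A call ended at 12 h without control 1 or any JQ1 12 h array, and at 24 h without control 1, control 2 or JQ1 24 h array 1 or 3. The HSPA1B call ended at each time without control 1, control 2 or any treated array of that time. The HSPA1L call ended likewise, at 12 h also without JQ1 24 h array 3. Over the 9 fits that each left out 1 array, control 3 included, HSPA1A lay 1.22 to 1.83 log2 above control at 12 h and 1.06 to 1.67 at 24 h, HSPA1B 1.29 to 1.99 and 1.11 to 1.81, and HSPA1L 0.28 to 0.34 and 0.25 to 0.34. The median member differed by 0.40 log2 at 12 h and 0.25 at 24 h, where the median over all genes tested was 0.01 at each time. Without control 3 the members called up were 6 at 12 h (background 9.57%) and 5 at 24 h (9.61%).

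Heat shock elements within 250 bases of the starts of HSPA6, HSPB1 and HSPD1 are shown for comparison with those of HSPA1A and HSPA1B. The 30-base stretches below are from RefSeq (GRCh38.p14), 5′ to 3′ on the gene's strand, with the 2-unit element in capitals; they lie at chr1:161524458-161524487 (plus strand) for HSPA6, at chr7:76302480-76302509 (plus strand) for HSPB1 and at chr2:197500061-197500090 (minus strand) for HSPD1.
HSPA6: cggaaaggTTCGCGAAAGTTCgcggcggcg
HSPB1: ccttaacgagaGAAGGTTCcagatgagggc
HSPD1: gcattTTCTGGAAAGTTCTGGAAccgagcg
The longer 3-unit form, GAANNTTCNNGAA or TTCNNGAANNTTC, was present before HSPA6 and before the first of 2 annotated HSPD1 starts, where overlapping copies run together. Of all 35116 promoter windows of the same length, 11.6% held the 2-unit form, 0.441% the 3-unit form and 10.7% TATAAA on either strand. The elements read the same on both strands, and a 3-unit match contains 2 overlapping 2-unit matches. Among the members, 6 of 8 held the 2-unit form, and BAG3 and HSPH1 held none in this window. A match describes the letters and says nothing about binding.

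**Figure D4:**
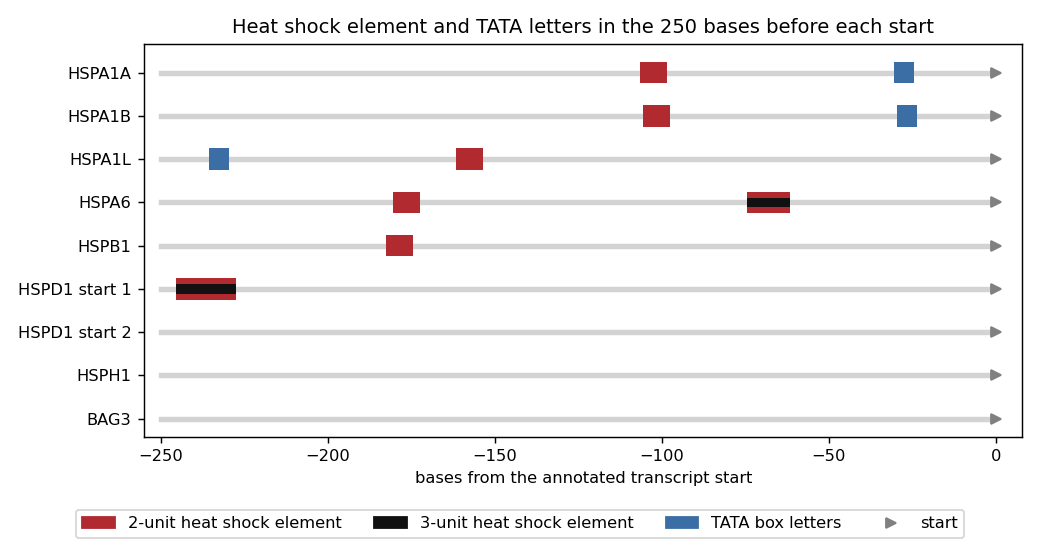
Positions of heat shock element letters in the 250 bases before each annotated start of the 8 genes, in bases from the start (grey arrowhead); red blocks are 2-unit elements, black strips 3-unit elements and blue blocks the TATA box letters. HSPA1A and HSPA1B carry 1 element whose last letter lies 99 and 98 bases before the start, HSPA6 and the first HSPD1 start carry 3-unit elements, and BAG3, HSPH1 and the second HSPD1 start carry none.

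The wider chaperone network was read from 113 listed genes, families and textbook HSF1 targets, of which 42 were among the named rows and 34 are not members. Of the 34, 3 were called up at 12 h (background 3.54%) and 2 down (4.39%); at 24 h 4 were called up (5.17%) and 2 down (6.34%). The median of the 34 was 0.12 log2 at 12 h and 0.03 at 24 h. Without control 3, 12 were called up and 3 down at 12 h (backgrounds 9.57% and 10.5%), and 9 up and 3 down at 24 h (9.61% and 11.3%). Control 3 exceeded the mean of controls 1 and 2 on 24 of the 34, and on 7032 of all 14884 genes tested. The 38 listed J-domain (HSP40) genes, which feed clients to HSP70, were not analysed here, nor were HSPA8, HSP90AA1 or HSP90AB1. The lists were drawn up with earlier results of these data known. Apart from the factors and regulators, the list genes described next were picked because they were called. Their adjusted p-values, at 12 h and 24 h alike, are therefore no independent evidence about the lists.

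Among the other HSP70 genes, HSPA9, which encodes mortalin, the mitochondrial HSP70, fell at both times. It read 11.61, 11.71 and 11.66 log2 at 12 h and 11.35, 11.59 and 11.47 at 24 h, against 12.33, 12.42 and 12.13 in the controls. All 3 treated arrays lay below all 3 controls at each time, as for 1622 of the 14884 genes at 12 h and 1911 at 24 h. The difference was -0.63 at 12 h (SE 0.10, limma adjusted p = 0.0057) and -0.82 at 24 h (SE 0.10, adjusted p = 0.0013), and -0.71 and -0.90 without control 3. HSPA12A, a distant HSP70 relative, rose at 24 h (log2 0.46, SE 0.13, adjusted p = 0.046). Leaving out any one of the other 8 arrays ended that call (adjusted p of 0.067 to 0.15); without control 3 the difference was 0.62 (adjusted p = 0.00076). Of the 13 HSP70 family genes measured, the others called were HSPA1A, HSPA1B and HSPA1L, described above without a test.

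In the HSP90 group, UNC45A, a co-chaperone of HSP90 and myosin, was the gene called of the 9 measured. It read 7.79, 7.58 and 7.74 log2 at 24 h, against 6.81, 6.87 and 7.14 in the controls (log2 0.76, SE 0.10, limma adjusted p = 0.0022; 0.86 without control 3). At 12 h it was also up (log2 0.53, adjusted p = 0.014; 0.64 without control 3), a call lost without control 1 (adjusted p = 0.059) or control 2 (0.060) and without JQ1 12 h array 1 (0.053) or array 2 (0.059). Of the 17 measured textbook HSF1 targets, 4 were called up and 0 down at each time, namely HSPA1A, HSPA1B, BAG3 and CLU, where 3.54% of all genes were called up at 12 h and 5.17% at 24 h. HSPA1A and HSPA1B are no evidence here, since they were chosen for their rise. CLU, which encodes the secreted chaperone clusterin, was 2.00-fold higher at 12 h (log2 1.00, SE 0.14, adjusted p = 0.0040) and 2.34-fold higher at 24 h (log2 1.23, SE 0.14, adjusted p = 0.0012). Its treated arrays read at least 7.62, against 6.64, 6.88 and 6.62 in the controls, and without control 3 the differences were 0.96 and 1.18. Without control 3, 10 of the 17 targets were called up and 1 down at 12 h (9.57% and 10.5% of all genes), and 8 up and 1 down at 24 h (9.61% and 11.3%). Those called up included the members HSPA1A, HSPA1B, BAG3 and HSPH1 at both times and HSPD1 at 12 h. The members were picked with these arrays known.

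Of the heat shock factors and their regulators, HSF1 itself read 8.14, 8.14 and 8.03 log2 at 12 h and 8.25, 8.04 and 8.06 at 24 h, against 8.25, 8.26 and 8.12 in the controls, and was not called at 12 h (log2 -0.10, SE 0.08, limma adjusted p = 0.56) or 24 h (log2 -0.10, adjusted p = 0.55). Without control 3 its differences were -0.15 and -0.14 (adjusted p = 0.33 and 0.35). RNA levels do not report the activity of HSF1, which is set largely at the protein. IER5, an immediate early gene whose product is known to promote HSF1 activity, rose at 12 h (8.32, 8.17 and 8.29, against 7.76, 7.69 and 7.51 in the controls). Its difference was 0.60 at 12 h (SE 0.09, adjusted p = 0.0054) and 0.38 at 24 h (adjusted p = 0.029), and 0.53 and 0.30 without control 3. The 24 h call was lost without control 2 (adjusted p = 0.069) and without JQ1 24 h array 1 or array 3 (0.10 each). HSF2BP, which encodes an HSF2-binding protein, fell at 12 h (log2 -0.92, SE 0.15, adjusted p = 0.0086) and 24 h (log2 -0.58, adjusted p = 0.042), with differences of -1.04 and -0.71 without control 3. Its 24 h call was lost without control 1 (adjusted p = 0.13), control 2 (0.14), JQ1 12 h array 2 (0.070) or any JQ1 24 h array (0.075 to 0.14). HSF4 (log2 0.31 at 24 h, adjusted p = 0.11), HSF5 (0.10, adjusted p = 0.70) and HSBP1 (0.12, adjusted p = 0.48), an inhibitor of HSF1, were not called at either time; without control 3 their 24 h differences were 0.24, -0.029 and 0.17.

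**Figure D5:**
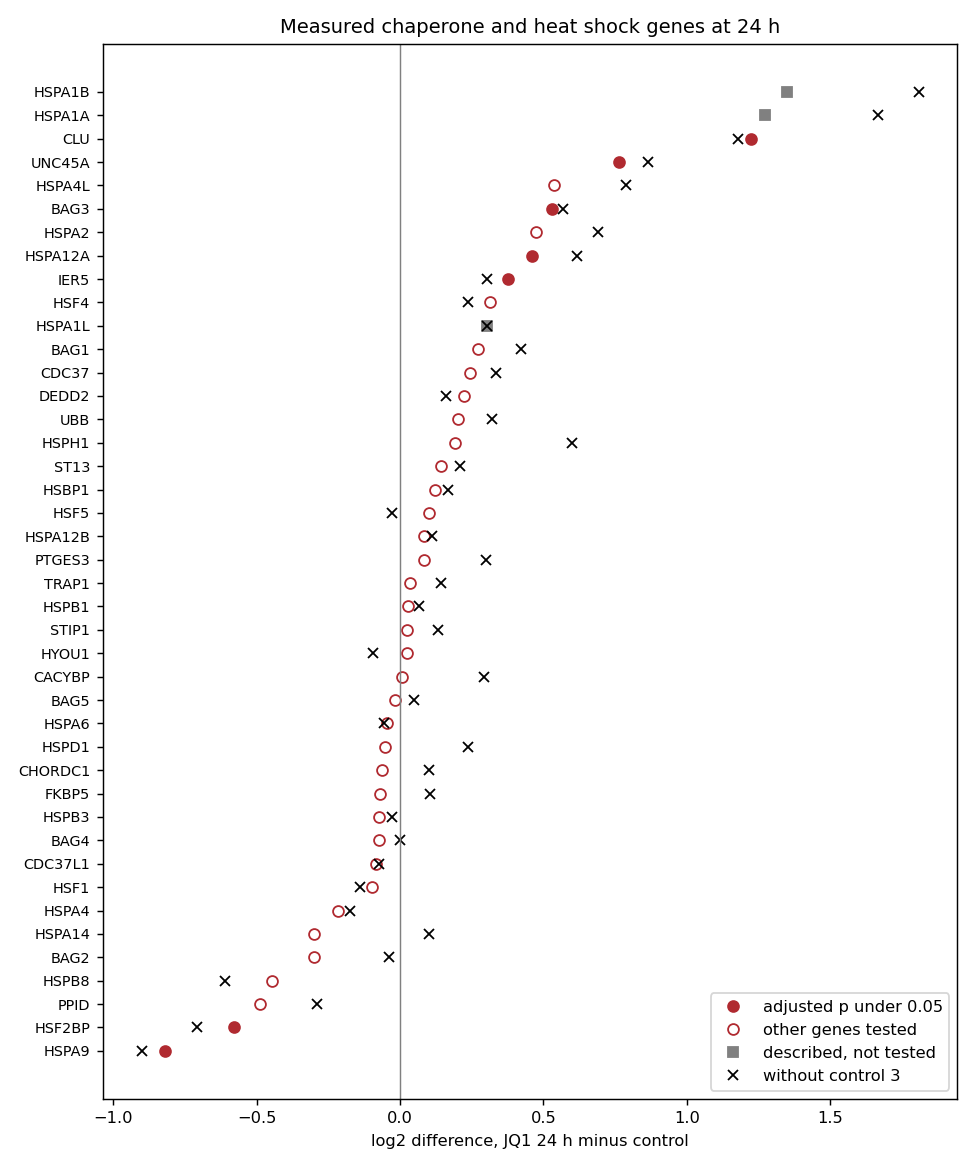
Log2 difference between JQ1 24 h and control for the 42 measured chaperone and heat shock genes, ordered by size; filled red points passed an adjusted p under 0.05 and open points did not, grey squares (HSPA1A, HSPA1B, HSPA1L) are described without a test, and crosses leave out control 3. CLU, UNC45A, BAG3, HSPA12A and IER5 pass upward and HSPA9 and HSF2BP downward; crosses lie well to the right of the points for HSPH1, HSPD1 and CACYBP.

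The genes whose profile over the 9 arrays was most like that of HSPA1A, leaving out HSPA1B and HSPA1L, were IMPDH2 (Pearson r = 0.993), CAVIN1 (0.992), TRIM5 (0.991), VCP (0.990), EZR (0.990), SAMHD1 (0.989), TRIM28 (0.989) and PITRM1 (0.988). These coefficients describe 9 arrays that fall into groups and share control 3, and carry no p. All 8 had control 3 between controls 1 and 2 and the treated means, as HSPA1A did. That order follows largely from choosing these genes for their likeness to HSPA1A. CAVIN1, a coat protein of caveolae, averaged 9.97 at 12 h and 9.93 at 24 h, against 8.22 in controls 1 and 2 and 9.37 in control 3. VCP, an ATPase that extracts proteins for degradation, averaged 11.55 and 11.49, against 10.60 and 11.14.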

How the data were processed

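The authors deposited 1 table of log2 array signals, with 53617 rows and 9 columns, and no scanner file was used here. The log2 unit was read from the deposited values, which ran from 2.01 to 13.88. The submitters' processing notes name the software Transcriptome Analysis Console. Background correction, normalization and the software's version are not given in the sources used here. Equal array medians mean that differences are relative to other genes.

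Rows were named from the platform's gene table (16098 rows with 1 symbol, 37519 unnamed). The row with the highest mean stood for each of 14884 genes. All 9 arrays entered 1 limma model (limma 3.58.1, R 4.3.3, eBayes with 3.14 prior degrees of freedom) with a mean for each group. P-values were adjusted over all genes by Benjamini-Hochberg, and calls needed an adjusted p below 0.05. In simulated data for JQ1 24 h against control with 14884 genes, the model recovered 85% of genes changed by 1 log2 and 97% of those changed by 2. It made 9 false calls. The simulated noise was independent, with 1 spread per gene for all arrays and no array standing apart as control 3 did. The recovery in the real data was therefore not measured. The 3 arrays per group limit the precision.

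Members and lists were chosen with earlier results of these data known. Besides members, the text names all measured heat shock factors and regulators, list genes called (up to 4 each way), and the 8 genes most like HSPA1A. Promoter windows come from RefSeq (GRCh38.p14) and were aligned with Biopython 1.88. Deviations of same-numbered arrays of different groups had correlations from -0.28 to 0.17. Differently numbered arrays were not compared in this way, so whether the numbers pair the samples was not settled. The main model held no pairing. Alternatives covered normalization, row choice, a filter on dim genes, moderation, arrays in the fit and a replicate block.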

Additional observations from a re-analysis of the deposited data

How the results depend on the processing

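Both other scalings, the mean of all rows, a filter on dim genes, trended moderation and the replicate block left every count of calls within 1.5 times its value. With the replicate block, 967 genes were called at 12 h, 1478 at 24 h and 1 between the treated times, and the listed heat shock genes called were 8, 8 and 0. With it HSF2BP at 24 h (adjusted p = 0.064) and HSPA1L at both times were no longer called. HSPA1L was also not called, at either time, with the mean of all rows, all rows tested together or only the 2 groups compared. At 12 h its call was also lost with array medians centred and with trended moderation. Fitting only the 2 groups compared ended the HSPA1A and HSPA1B calls at both times. Testing all rows together ended the HSPA1B call at 24 h. Whether the numbers pair the arrays was not settled. Testing all rows together, which adds features, left 696 genes at 12 h and 1121 at 24 h, with 5 listed genes at 24 h. Fitting only the 2 groups compared, which has fewer samples, left 577 and 994, with 4 listed genes at 24 h. Leaving out each array in turn gave 543 to 2986 genes at 12 h, 786 to 3111 at 24 h and 1 to 22 between times, with the highest count in each case without control 3. Listed genes called then ran from 5 to 21 at 12 h and from 4 to 17 at 24 h, and the members' median from 0.29 to 0.53 and from 0.15 to 0.44.

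Direction turned for some results when single arrays were left out. At 24 h the ranges were -0.022 to 0.60 for HSPH1, -0.052 to 0.16 for HSPB1, -0.21 to 0.24 for HSPD1 and -0.029 to 0.16 for HSF5. At 12 h they were -0.069 to 0.12 for HSF4, -0.083 to 0.13 for HSF5, -0.064 to 0.092 for HSPA6 and -0.13 to 0.059 for HSPB1. Between the treated times they were -0.14 to 0.019 for HSPA6, -0.031 to 0.20 for HSPB1 and -0.059 to 0.020 for HSPA1L. HSPA1A, HSPA1B, HSPA1L and BAG3 stayed above control at both times under every alternative run, HSPA1A between 1.22 and 1.83 at 12 h.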

Other observations

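Several listed chaperone genes outside the members followed the HSPH1 pattern, with control 3 near or above the treated arrays. HSPA4L, an HSP110 relative, read 8.88, 9.18 and 9.31 log2 at 12 h and 8.98, 9.02 and 9.04 at 24 h, against 8.21, 8.24 and 8.98 in controls 1, 2 and 3. It was not called with all controls (limma adjusted p = 0.084 at 12 h and 0.12 at 24 h) and was called up without control 3 (adjusted p = 0.00069 at 12 h and 0.0013 at 24 h). HSPA2 behaved likewise (log2 0.60 at 12 h with all controls and 0.81 without control 3). CACYBP, an HSP90-linked protein, read 6.09, 6.47 and 6.41 at 24 h, against 6.04, 6.02 and 6.89 in controls 1, 2 and 3. HSPA14, a ribosome-associated HSP70, read 8.81 in control 3, above every other array. These 4 genes were chosen after their values were seen, and the cause of control 3's position was not tested.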
